A study of Mus musculus with 2 samples.

Results

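Transcripts of the proteasome were examined in the livers of mice lacking apolipoprotein E, on 2 arrays that each carried a pooled RNA sample. Genes were taken by symbol: every probe set annotated to 1 gene symbol beginning with Psma, Psmb, Psmc, Psmd, Psme or Psmg. This gave 81 probe sets of 47 genes, out of 20380 probe sets of 12393 genes with a single symbol. The oleanolic acid array came from male apolipoprotein E-deficient mice of the C57BL/6J background, aged 2 months per the labels and fed for 11 weeks on a semipurified Western diet that held 0.01% oleanolic acid, which gave each day 10 mg per kg. The control array came from male mice of the same genotype, background and age, fed the Western diet without the compound for 11 weeks. Oleanolic acid is a plant triterpenoid, and animals without apolipoprotein E, which directs remnant lipoproteins to the liver, develop atherosclerosis. The growth text of both samples names oleanolic acid, so the groups were read from the title and the diet entry of each sample. The mice in each pool were not counted in the sources used here. With 1 array per diet, no test between diets was possible, no p-value is given, and every difference describes these 2 arrays.

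The proteasome degrades proteins tagged with ubiquitin. Its core particle is a barrel of alpha and beta rings whose beta rings hold the proteolytic sites, and its regulatory particle, made of an ATPase-bearing base and a lid, binds, deubiquitinates, unfolds and feeds in substrates. Interferon-gamma makes cells replace the catalytic beta subunits Psmb5, Psmb6 and Psmb7 with Psmb8, Psmb9 and Psmb10, and raises the activator subunits Psme1 and Psme2. This immunoproteasome is abundant in leukocytes, and it shapes the peptides shown on MHC class I. Hepatocytes, which make up most of the liver, mainly use the constitutive form.

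Signals below are linear MAS5 units as deposited. A probe set was called measured when its signal reached the array median on at least 1 array (59.3 units on the oleanolic acid array and 61.5 units on the control array). The log2 ratio of a gene is oleanolic acid over control, averaged over its measured probe sets, and its signal is their geometric mean. Errors are probe set SDs, the SD between the measured probe sets of a gene. A gene with 1 measured probe set takes the pooled SD of the genes with several in its band of signal. These SDs measure how far probe sets disagree, not the spread between mice. Of the 47 genes, 45 were measured, by 64 probe sets. Psma8, a testis-specific alpha subunit, had signals of 11.7 on the oleanolic acid array and 16.7 on the control array. Psmc3ip, a meiotic recombination factor that shares only the prefix, had 11.1 on the oleanolic acid array and 17 on the control array. Neither gene entered the values below.

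All 45 measured genes lay within 0.5 of 0 on the log2 scale, so none passed the log2 ratio of 1.5 named in the submitters' design text. Past 0.5 in either direction lay 5.87% of all 7137 measured genes, and past 1.5 lay 0.392%. Within this narrow range the direction was mostly shared. The 41 genes called constitutive are all the measured proteasome genes outside the immunoproteasome list. They thus include assembly chaperones, the activators Psme3 and Psme4, and Psme3ip1, and are not only the subunits that the immunoproteasome replaces. Their median log2 ratio was 0.11, and 36 of 41 were above 0, against 50.2% of all measured genes. Of the 31 among them in the rings or regulatory particle, 29 were above 0 (median 0.13), and of the other 10, 7 were (median 0.087). The immunoproteasome genes had a median of -0.15, and 0 of 4 were above 0. All 4 were below it, against 49.7% of all measured genes. The median of the 4 immunoproteasome genes minus that of the 41 constitutive genes was -0.26, a difference between groups of genes on the same arrays that carries no test of the diet. The rule names a further immunoproteasome gene, Psme2, but its probe set also carries the symbol of its close copy Psme2b. That probe set, assigned to neither gene, had signals of 1297 on the oleanolic acid array and 1362 on the control array, a log2 ratio of -0.070.

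**Figure D1:**
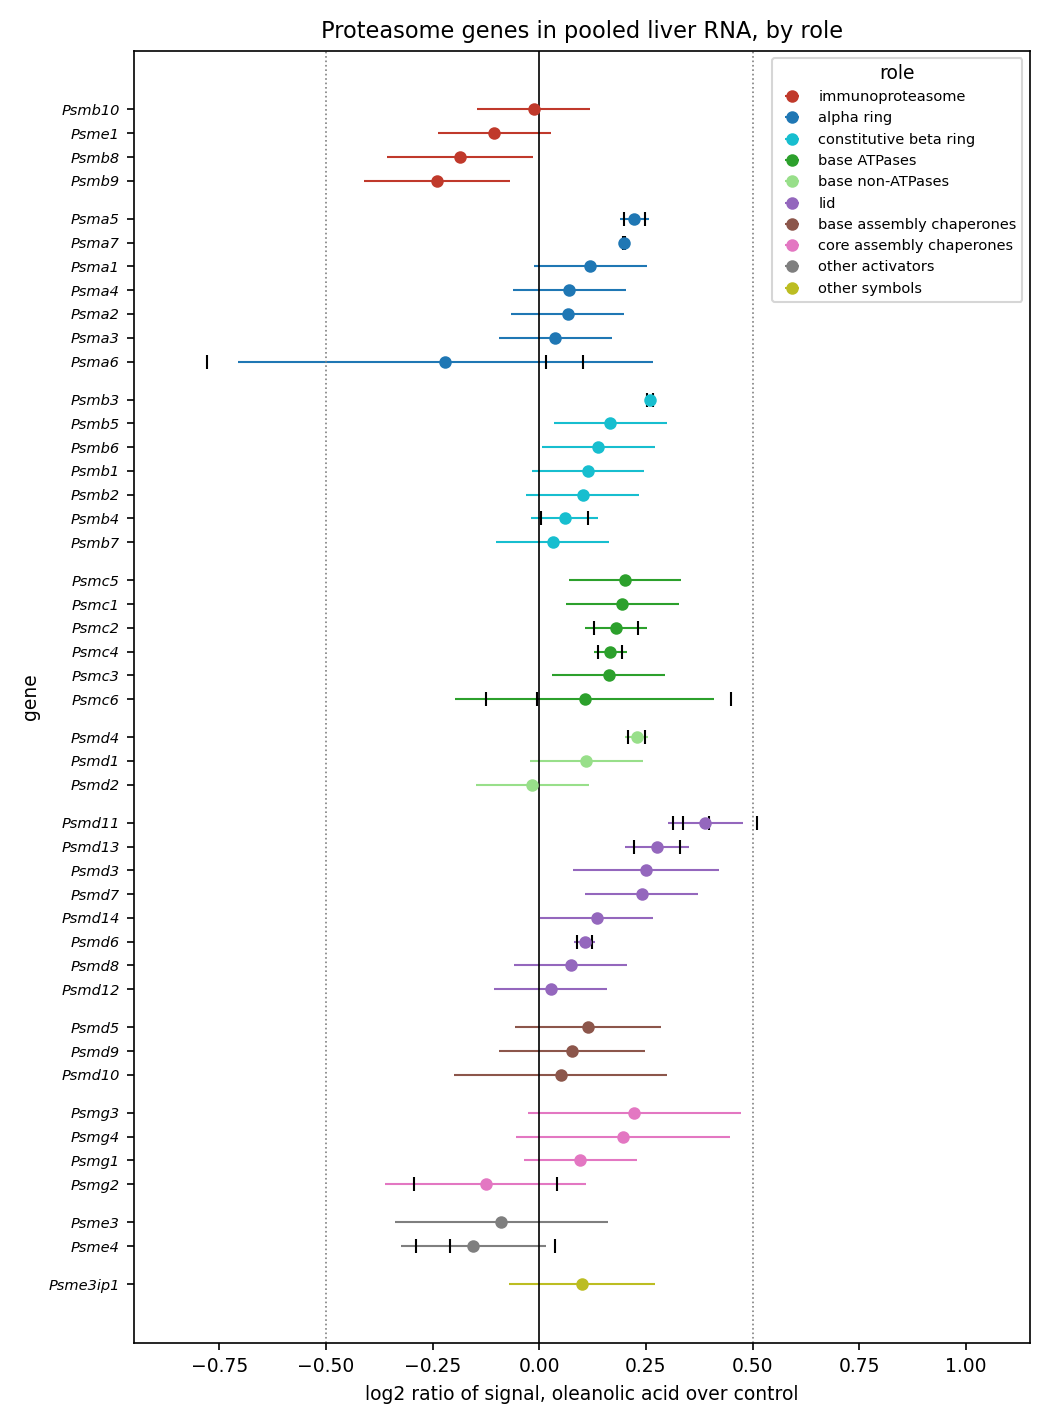
Log2 ratio of signal, oleanolic acid over control, for the 45 measured proteasome genes grouped by role. Circles are gene values, bars are probe set SDs, vertical ticks are single probe sets of genes with several, and dotted lines mark 0.5 in size. The 4 immunoproteasome genes at the top lie below 0, while 36 of the 41 genes under them lie above it.

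The catalytic subunits of the immunoproteasome were not equally placed. Psmb9, the induced counterpart of Psmb6, had a signal of 371 on the oleanolic acid array and 438 on the control array. Its log2 ratio of -0.24 (probe set SD 0.17) was the lowest of all 45 genes, and 13.6% of all measured genes lay lower. Psmb8, the induced counterpart of Psmb5, had signals of 509 on the oleanolic acid array and 578 on the control array. Its log2 ratio was -0.19 (probe set SD 0.17), with 18.7% of all measured genes lower. Psmb10, the counterpart of Psmb7, had signals of 838 on the oleanolic acid array and 846 on the control array. At -0.013 (probe set SD 0.13) it did not differ between the arrays beyond probe error. Psme1, a subunit of the ring-shaped activator that caps the core particle, had signals of 1822 on the oleanolic acid array and 1960 on the control array. Its log2 ratio of -0.11 was also within its probe set SD of 0.13. Each of these genes rested on 1 probe set. Only Psmb9 and Psmb8 exceeded their probe set SD, and 40.5% of all measured genes did so in either direction.

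The constitutive catalytic subunits stood on the other side of 0. Psmb5, which carries the chymotrypsin-like activity, had signals of 2023 on the oleanolic acid array and 1803 on the control array (log2 ratio 0.17, probe set SD 0.13). Psmb6, which carries the caspase-like activity, had signals of 1916 on the oleanolic acid array and 1740 on the control array (log2 ratio 0.14, probe set SD 0.13). For Psmb7, the trypsin-like subunit, the signals were 838 on the oleanolic acid array and 820 on the control array, a log2 ratio of 0.031 within its probe set SD of 0.13. The log2 ratio of Psmb8 minus that of Psmb5 was -0.35, and that of Psmb9 minus that of Psmb6 was -0.38, each with a combined probe set SD of 0.22. The same difference for Psmb10 and Psmb7 was -0.044, with a combined probe set SD of 0.19. The differences thus exceeded the combined probe set SD for Psmb8 and Psmb9 with their counterparts, while Psmb10 and Psmb7 had ratios that were not told apart by probe error. Each gene of these pairs rested on 1 probe set, and the log2 ratios of all measured genes had an SD of 0.28. How often other pairs of genes differ by as much was not counted.

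**Figure D2:**
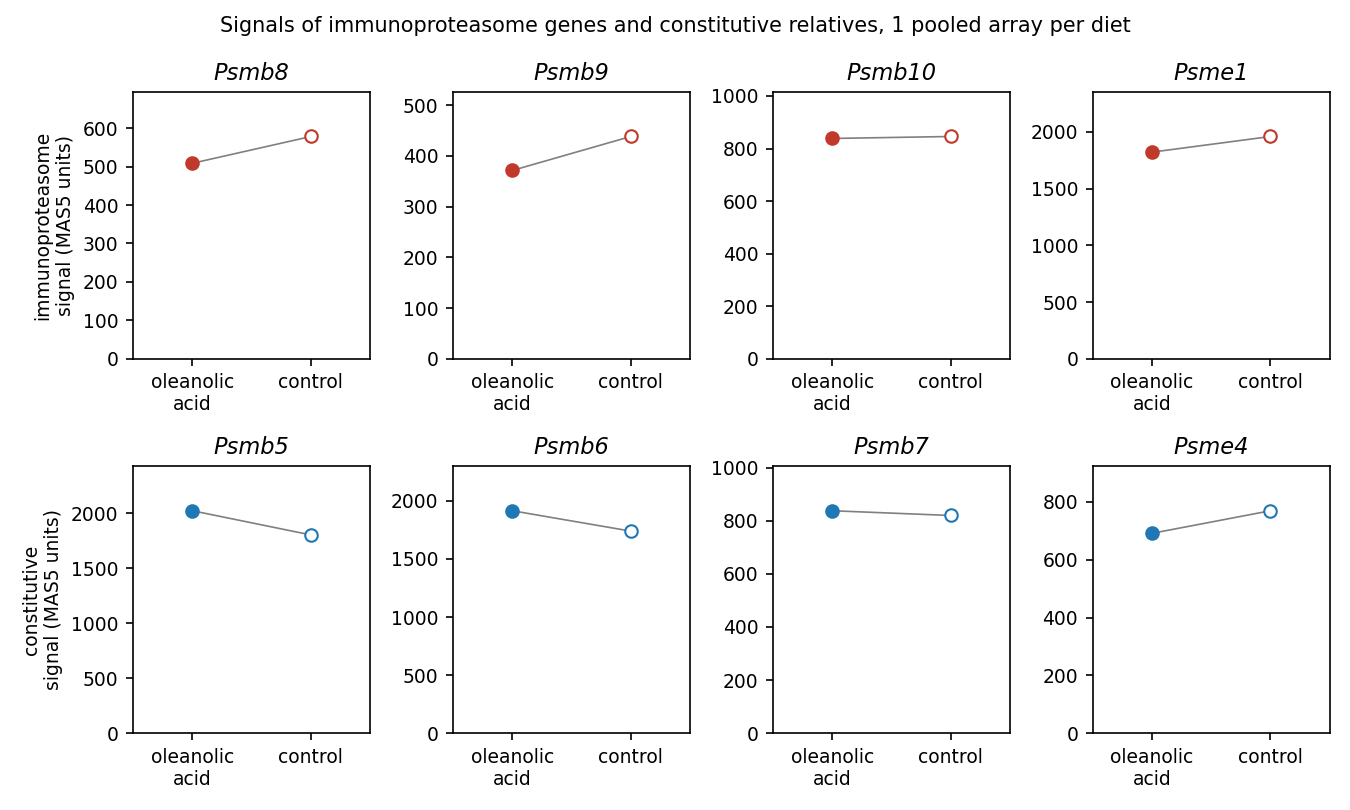
Signals in MAS5 units on the oleanolic acid array (filled) and the control array (open) for 4 immunoproteasome genes (top row) and for 4 constitutive genes (bottom row), 1 pooled array per diet, with each axis starting at 0. Psmb8 and Psmb9 are lower on the oleanolic acid array, Psmb5 and Psmb6 higher, and Psmb10 and Psmb7 nearly level.

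Psmb9 and Psmb8 lie near each other in the class II region of the major histocompatibility complex on mouse chromosome 17. Psmb9 is transcribed away from Tap1, a subunit of the peptide transporter that loads MHC class I, and the starts of these genes are 225 bases apart. Tap1 had signals of 172 on the oleanolic acid array and 194 on the control array, a log2 ratio of -0.18 within its probe set SD of 0.25, so both genes of the pair were on the lower side. The stretch between the starts and the upstream bases of Psmb8 are printed because these are the lowest catalytic subunit genes, that of Psmb5 because it is the constitutive counterpart of Psmb8, and that of Psmd11 because it had the highest log2 ratio of all members. Sequences are RefSeq promoters on GRCm38.p6, read along the strand given. Capitals mark matches to the letters TGACNNNGC (an antioxidant response element, the site of NRF1 and NRF2) or to GAAA and GAAA separated by 2 bases (an element of interferon regulatory factors), searched on both strands.
Psmb9 and Tap1 between their starts, chr17:34187331-34187555, plus strand: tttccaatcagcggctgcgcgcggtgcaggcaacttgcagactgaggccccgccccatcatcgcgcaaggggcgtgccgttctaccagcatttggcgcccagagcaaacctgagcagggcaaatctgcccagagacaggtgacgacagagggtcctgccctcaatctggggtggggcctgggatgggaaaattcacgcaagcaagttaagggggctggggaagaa
Psmb8 upstream, chr17:34197945-34198194, plus strand: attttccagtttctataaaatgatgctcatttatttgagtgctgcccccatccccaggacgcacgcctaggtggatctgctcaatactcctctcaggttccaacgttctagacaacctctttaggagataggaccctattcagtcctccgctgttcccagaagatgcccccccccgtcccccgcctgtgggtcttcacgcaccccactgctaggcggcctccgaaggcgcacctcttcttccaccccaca
Psmb5 upstream, chr14:54617996-54618245, minus strand: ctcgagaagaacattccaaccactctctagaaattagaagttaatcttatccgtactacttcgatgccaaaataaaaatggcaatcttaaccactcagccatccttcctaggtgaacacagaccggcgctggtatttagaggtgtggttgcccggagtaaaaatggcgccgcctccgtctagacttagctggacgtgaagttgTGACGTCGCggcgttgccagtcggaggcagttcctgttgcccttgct
Psmd11 upstream, chr11:80428365-80428614, plus strand: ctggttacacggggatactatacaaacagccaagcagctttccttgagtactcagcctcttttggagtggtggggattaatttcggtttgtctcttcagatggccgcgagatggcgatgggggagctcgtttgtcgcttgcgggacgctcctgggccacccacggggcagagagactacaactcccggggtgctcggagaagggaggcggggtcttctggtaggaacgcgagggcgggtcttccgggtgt

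The match in Psmb5 is to the antioxidant response element, and its first base lies 47 bases before the gene start. The stretches of Psmb9, Psmb8 and Psmd11 hold neither motif. Promoter windows of 300 bases were found for 39 of the 47 genes, 42 windows in all, and matches of the motifs overlapped in 0 of them. The antioxidant response element letters were in 14.3% of these windows, against 14.2% of the 7618 windows of all measured genes and 12.4% of all 32851 windows in the table, so the members' share was that of the measured genes. Among constitutive genes, the 6 with that match had a median log2 ratio of 0.092 and the 28 without it 0.12. The interferon element letters were in 5 member windows, those of Psmb3, Psmd4, Psmd9, Psmg4 and Psme1, or 11.9%, against 3.18% of the windows of all measured genes and 3.44% of all windows. A match is a description of letters and was not set against any binding data.

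Of the alpha ring, which gates the core particle, 6 of 7 measured genes had log2 ratios above 0, with a median of 0.071. Psma5 was highest, with signals of 1880 on the oleanolic acid array and 1611 on the control array (log2 ratio 0.22 ± 0.034, SD, n = 2 probe sets). Psma7 followed at 0.20 ± 0.0035 (SD, n = 2 probe sets), and Psma1, Psma2, Psma3 and Psma4 lay between 0.038 and 0.12, each within its probe set SD of 0.13. Psma6 had the lowest value of the ring, -0.22 ± 0.49 (SD, n = 3 probe sets), with geometric mean signals of 877 on the oleanolic acid array and 1021 on the control array. That value came from its dimmest measured probe set, with signals of 78.9 on the oleanolic acid array and 135 on the control array, a log2 ratio of -0.78. The other probe sets of Psma6, with signals from 2285 to 3700 units over both arrays, were at 0.016 and 0.10, and the median over its probe sets was 0.016. No direction can therefore be given for Psma6.

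Constitutive beta ring genes were all above 0, with a median of 0.11 over 7 genes. The highest was Psmb3, a structural subunit without a catalytic site, with signals of 1952 on the oleanolic acid array and 1631 on the control array. Its log2 ratio was 0.26 ± 0.010 (SD, n = 2 probe sets), and both probe sets gave nearly the same value, 0.25 and 0.27. The lowest was Psmb7. Between them lay Psmb5, Psmb6, Psmb1 (0.11), Psmb2 (0.10) and Psmb4 (0.060 ± 0.079, SD, n = 2 probe sets), the last 3 within their probe set SDs.

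In the regulatory particle 16 of the 17 genes taken by symbol prefix were above 0 and the median log2 ratio was 0.17. The 6 base ATPases, which form the hexameric motor, were the most uniform group of more than 3 genes: their values had an SD of 0.034 between genes and ran from 0.11 to 0.20. Psmc5 was highest, with signals of 791 on the oleanolic acid array and 688 on the control array (log2 ratio 0.20, probe set SD 0.13). Psmc1 (0.19), Psmc2 (0.18), Psmc4 (0.17) and Psmc3 (0.16) were close to it, and each exceeded its probe set SD. Psmc6 was lowest, with signals of 411 on the oleanolic acid array and 382 on the control array (log2 ratio 0.11 ± 0.30, SD, n = 3 probe sets). Its probe sets disagreed: the dimmest was at 0.45, with 91.0 on the oleanolic acid array and 66.6 on the control array, and the others were at -0.12 and -0.0057. The value of Psmc6 was -0.0057 with its brightest probe set alone, so the narrow spread among the ATPases depends on averaging over its probe sets.

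Of the base subunits without ATPase activity, Psmd4, a receptor for ubiquitin chains, had signals of 1154 on the oleanolic acid array and 985 on the control array (log2 ratio 0.23 ± 0.027, SD, n = 2 probe sets). With a dim further probe set included, which read 28.9 on the oleanolic acid array and 3.4 on the control array, Psmd4 was at 0.63. The scaffold subunits Psmd1 and Psmd2 had log2 ratios of 0.11 and -0.016, both within a probe set SD of 0.13. Signals of Psmd2 were 1134 on the oleanolic acid array and 1146 on the control array.

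The lid held the highest values of the whole set. All 8 lid genes taken by symbol prefix were above 0, with a median of 0.19, and 3 of the 4 proteasome genes above 0.25 were lid genes. Above 0.25 lay 10.6% of all measured genes, against 4 of 45 here, and below -0.25 lay 12.9% of all measured genes, against 0 of 45. Psmd11, a scaffold subunit known in human embryonic stem cells to raise the assembly of complete proteasomes, was the highest. Its geometric mean signals were 1315 on the oleanolic acid array and 1004 on the control array, 1.31-fold (log2 ratio 0.39 ± 0.088, SD, n = 4 probe sets). All 4 measured probe sets gave a higher signal on the oleanolic acid array, at log2 ratios from 0.31 to 0.51. Of all measured genes, 4.88% were higher than Psmd11.

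Psmd13, another lid scaffold, had signals of 220 on the oleanolic acid array and 182 on the control array (log2 ratio 0.28 ± 0.076, SD, n = 2 probe sets). Psmd3 had signals of 590 on the oleanolic acid array and 496 on the control array, and its log2 ratio of 0.25 (probe set SD 0.17) was only just past that size. Psmd7, the inactive partner of the lid deubiquitinase, was at 0.24, and Psmd14, the deubiquitinase itself, at 0.13, both against a probe set SD of 0.13. Psmd6 (0.11 ± 0.024, SD, n = 2 probe sets) and Psmd8 (0.073, within its probe set SD of 0.13) were lower. Psmd12 was the lowest lid gene, with signals of 1162 on the oleanolic acid array and 1141 on the control array (log2 ratio 0.026, probe set SD 0.13). The lid genes thus ranged from no measurable difference to the largest of the set.

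Among assembly factors, Psmd5, Psmd9 and Psmd10 are chaperones that help to assemble the base. They had log2 ratios of 0.11, 0.077 and 0.050, all within their probe set SDs of 0.17, 0.17 and 0.25. Psmd5 had signals of 494 on the oleanolic acid array and 456 on the control array, and Psmd10 had 229 on the oleanolic acid array and 221 on the control array. Among the 4 chaperones of the core particle, Psmg3 was highest at 0.22 (probe set SD 0.25), with signals of 213 on the oleanolic acid array and 183 on the control array. Psmg4 was at 0.20 (probe set SD 0.25) and Psmg1 at 0.097 (probe set SD 0.13). Psmg2 had signals of 402 on the oleanolic acid array and 439 on the control array (log2 ratio -0.13 ± 0.24, SD, n = 2 probe sets), and its probe sets stood at 0.041 and -0.29. No assembly factor exceeded its probe set SD.

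The remaining activators were on the lower side. Psme3 encodes the nuclear relative of Psme1 and Psme2. Its signals were 170 on the oleanolic acid array and 181 on the control array (log2 ratio -0.089, probe set SD 0.25). Psme4 encodes a large single-chain activator known for its role in DNA repair and spermatogenesis. It had signals of 692 on the oleanolic acid array and 770 on the control array (log2 ratio -0.15 ± 0.17, SD, n = 3 probe sets), with probe sets at -0.29, -0.21 and 0.036. Neither exceeded its probe set SD. The log2 ratio of Psme1 minus that of Psme4 was 0.049 (combined probe set SD 0.22), and minus that of Psme3 it was -0.017 (combined probe set SD 0.28), so the activator genes were not told apart by probe error whether or not they belong to the immunoproteasome. Psme3ip1, which encodes a protein that binds Psme3 and is no subunit, had signals of 287 on the oleanolic acid array and 268 on the control array (log2 ratio 0.10, probe set SD 0.17).

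**Figure D3:**
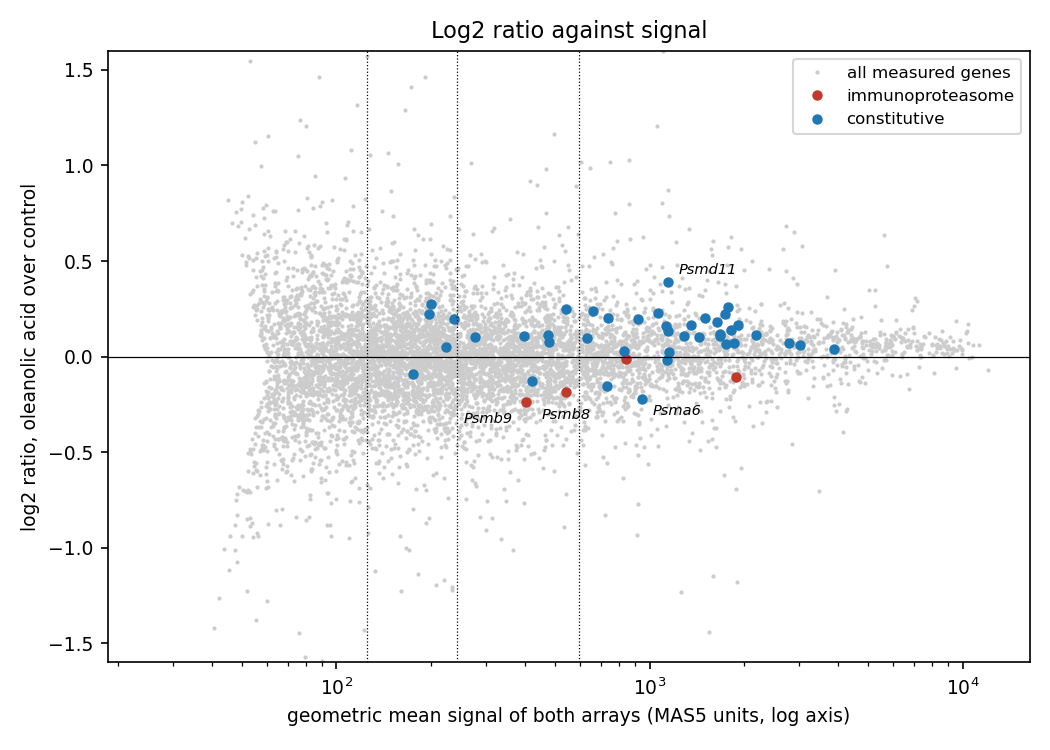
Log2 ratio, oleanolic acid over control, against the geometric mean signal of both arrays on a log axis, for all 7137 measured genes (grey), constitutive proteasome genes (blue) and immunoproteasome genes (red). Dotted lines separate the 4 signal bands, and 23 genes beyond 1.6 in size are not drawn. The proteasome genes lie close to 0 within the cloud, and most blue points lie above the zero line.

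The shared direction was read against signal, because the brighter genes of these arrays were more often higher on the oleanolic acid array. In the highest of 4 signal bands, with 594 units or more, 58.2% of 1785 genes were above 0 and the median log2 ratio was 0.028. Of the 30 constitutive genes in that band, 27 were above 0 and the median was 0.12. The cytosolic ribosomal proteins, another set of subunits of one complex, had 34 of 44 measured genes above 0 and a median of 0.066. Their values had an SD of 0.16 between genes, that of the 41 constitutive proteasome genes was 0.12, and that of all measured genes was 0.28. Within the highest band alone, the SD was 0.20 for all 1785 genes and 0.12 for the 30 constitutive genes. Single probe sets gave a like picture: 52 of 60 measured constitutive probe sets were above 0, against 49.5% of the probe sets of all measured genes. All of those 52 belong to constitutive genes, since the 4 immunoproteasome probe sets were below 0.

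Of 14 member genes with several measured probe sets, 10 had all of them above 0 and 0 had all of them below 0. Among all 2427 such genes, 27.3% had all probe sets above 0. The remaining 4, Psma6, Psmc6, Psme4 and Psmg2, held both signs. Gene by gene, 17 of 41 constitutive genes lay above 0 by more than their probe set SD and 0 lay below it by as much, where 19.2% and 21.3% of all measured genes did. An SD from 2 probe sets can be very small, like the 0.0035 of Psma7. The shares of all genes cover every signal band, whereas 30 of the 41 constitutive genes lay in the highest band. In that band more genes were above 0 and the pooled probe set SD was smallest, at 0.13, so the shares are no like comparison. These counts describe genes on 2 arrays. Members of one complex are regulated together, and their ratios share the same 2 RNA pools, so they are not independent repeats of the diet.

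**Figure D4:**
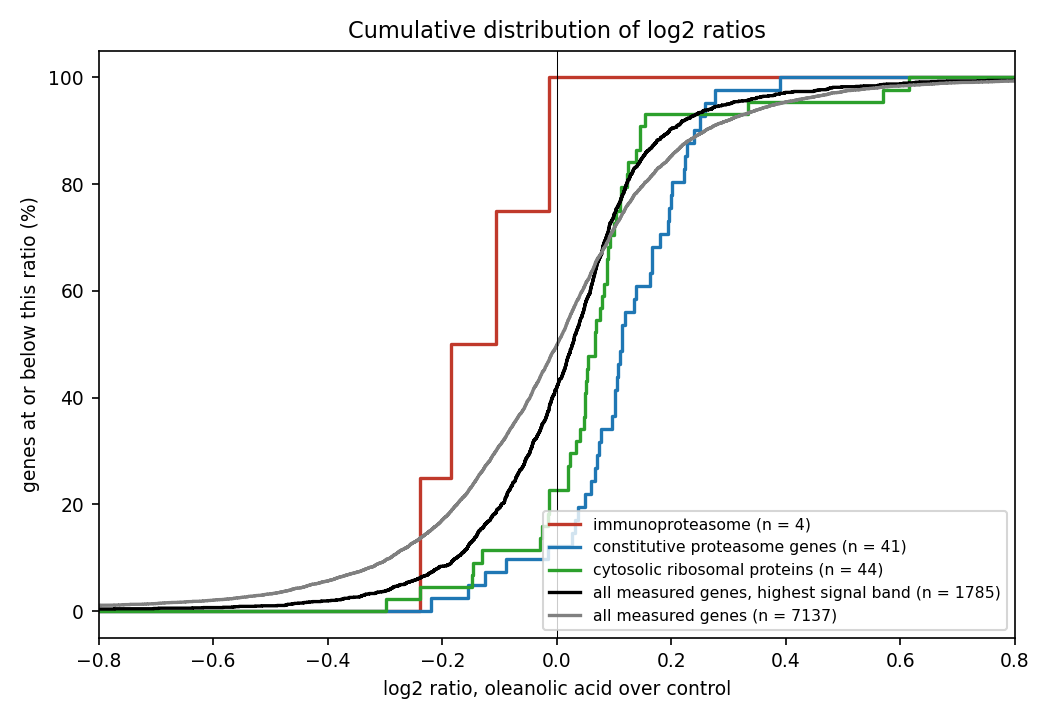
Percentage of genes at or below each log2 ratio, oleanolic acid over control, for 4 immunoproteasome genes, 41 constitutive proteasome genes, 44 cytosolic ribosomal protein genes, 1785 genes of the highest signal band and all 7137 measured genes. The constitutive curve crosses 0 at 5 of 41 genes, to the right of the ribosomal and all-gene curves, and the immunoproteasome curve ends below 0.

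Genes that work with the proteasome were mixed. Of 16 measured associated genes, 11 were above 0, with a median log2 ratio of 0.063. Highest was Sqstm1, which encodes the ubiquitin-binding autophagy receptor p62, with signals of 2143 on the oleanolic acid array and 1658 on the control array (log2 ratio 0.37, probe set SD 0.13). Zfand5, a zinc finger protein that stimulates the proteasome, was at 0.34 ± 0.23 (SD, n = 3 probe sets). Uchl5, a deubiquitinase of the regulatory particle, was lowest, with signals of 376 on the oleanolic acid array and 453 on the control array (log2 ratio -0.27, probe set SD 0.17). Past 0.25 lay 3 of these 16 genes, against 23.4% of all measured genes.

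The regulators of proteasome gene transcription had a median of 0.019 over 9 measured genes, 5 above 0 and 4 below. Nfe2l1, which encodes NRF1, the factor that restores proteasome genes when proteasome activity is short, had signals of 424 on the oleanolic acid array and 418 on the control array (log2 ratio 0.019, probe set SD 0.17). Nfe2l2, which encodes NRF2, was at -0.070 (probe set SD 0.13). The largest value was that of Maff, a small partner protein of both factors, with signals of 141 on the oleanolic acid array and 228 on the control array (log2 ratio -0.69, probe set SD 0.25). Ngly1, the enzyme that removes sugars from NRF1, was at -0.16 (probe set SD 0.13) and Mafg at -0.13 ± 0.19 (SD, n = 2 probe sets). No ubiquitin or E1 gene of the list used had a probe set with its symbol alone, so these were not analysed here.

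Class I antigen processing genes did not all share the side of the immunoproteasome. Their median log2 ratio was 0.027, with 7 of 10 above 0. Erap1, which trims peptides in the endoplasmic reticulum, had signals of 294 on the oleanolic acid array and 394 on the control array (log2 ratio -0.42, probe set SD 0.17). Tapbp, the loading factor tapasin, was at -0.19 ± 0.12 (SD, n = 2 probe sets), while Tap1 was at -0.18 and Tap2 at 0.18, each within its probe set SD. The light chain B2m was at 0.043 ± 0.016 (SD, n = 2 probe sets), H2-K1 at 0.011 ± 0.081 (SD, n = 4 probe sets) and H2-D1 at 0.092 ± 0.17 (SD, n = 5 probe sets).

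Interferon signalling genes were evenly placed, 7 above 0 and 7 below, with a median of -0.0048. Irf1, which encodes a transcriptional activator of Psmb9 in the interferon-gamma response, had signals of 407 on the oleanolic acid array and 401 on the control array (log2 ratio 0.022, probe set SD 0.17). Gbp2, an interferon-induced GTPase, was lowest at -0.53 ± 0.34 (SD, n = 2 probe sets), followed by Stat2 at -0.26 (within its probe set SD of 0.27) and Irf8, a factor of myeloid and B cells, at -0.26 ± 0.11 (SD, n = 2 probe sets). Iigp1, a GTPase strongly induced by interferon-gamma, was at 0.13 ± 0.016 (SD, n = 2 probe sets).

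Measured markers of immune cells lay mostly below 0, the side of the immunoproteasome genes, where 49.7% of all measured genes lay. All 8 leukocyte markers were below 0, with a median of -0.20 and summed signals of 4023 on the oleanolic acid array and 4784 on the control array. Ptprc, the pan-leukocyte phosphatase CD45, had signals of 394 on the oleanolic acid array and 548 on the control array (log2 ratio -0.47, probe set SD 0.17). All 4 markers of antigen-presenting cells were below 0, with a median of -0.45 and summed signals of 2239 on the oleanolic acid array and 3052 on the control array. H2-Eb1, a class II chain, was lowest at -0.51 (probe set SD 0.13). Of 10 macrophage markers 9 were below 0, with a median of -0.11 and summed signals of 11582 on the oleanolic acid array and 12347 on the control array. Marco was lowest at -0.67 (probe set SD 0.25), and C1qc was above 0 at 0.11 (probe set SD 0.13). Most macrophage markers lay within their probe set SDs.

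Lymphocyte markers were mostly dim. Of 6 T and NK cell markers 1 was measured, Ms4a4b at -0.85, and the 6 had summed signals of 124 on the oleanolic acid array and 189 on the control array. The dim Cd8a went the other way, with 10.0 on the oleanolic acid array and 7.9 on the control array. Of 5 B and plasma cell markers with a probe set 2 were measured, Ighm at -1.97 ± 1.31 (SD, n = 3 probe sets) and Jchain at -1.61, and the 5 had summed signals of 194 on the oleanolic acid array and 510 on the control array. Most of that difference came from Ighm and Jchain. On the oleanolic acid array the dim Cd79a, Cd79b and Ms4a1 read 7.8, 41.2 and 29.2. On the control array they read 7.3, 40.6 and 47.5, so Cd79a and Cd79b were nearly level. Hepatocyte markers were above 0 in 7 of 9 genes with a median of 0.068, and Alb, the albumin gene, had signals of 8950 on the oleanolic acid array and 8540 on the control array. The largest value in size went the other way. Tat had signals of 2725 on the oleanolic acid array and 4440 on the control array (log2 ratio -0.70, probe set SD 0.13). Cps1 was also below 0, at -0.086 (within its probe set SD of 0.13). Digestive enzyme genes of the exocrine pancreas, all 6 below 0, had summed signals of 189 on the oleanolic acid array and 662 on the control array. The part of cell composition in the values of Psmb8, Psmb9 and the other members was not tested, and in bulk liver fewer cells of a type and less RNA per cell cannot be told apart.

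**Figure D5:**
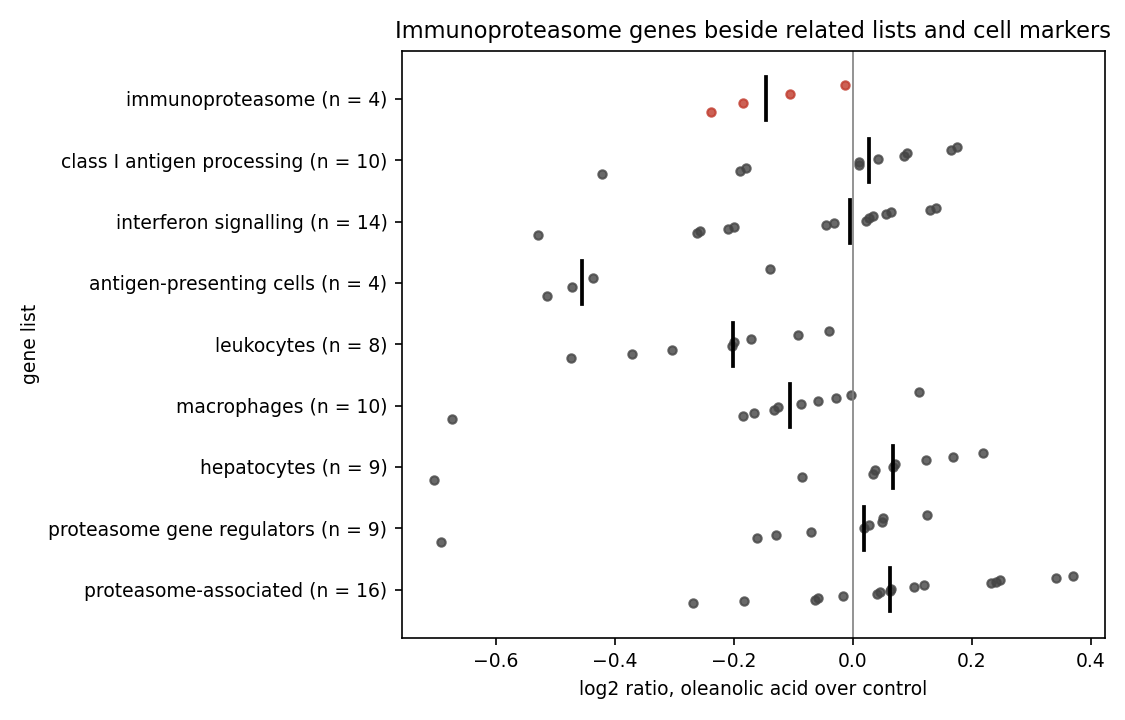
Log2 ratios, oleanolic acid over control, of the measured genes of each list (points) with the list median (bar). Immunoproteasome genes (red), leukocyte markers and markers of antigen-presenting cells lie below 0, while class I antigen processing and interferon signalling genes lie on both sides.

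Facts of the whole arrays were as follows. Apoe, the gene lacking in all animals, had signals of 232 on the oleanolic acid array and 194 on the control array, and whether its probe set lies in the disrupted part is not known. Pearson's r between the arrays was 0.986 across the log2 signals of measured probe sets. The pooled SD between probe sets of a gene was 0.20 over the 2427 genes with several measured probe sets. Among the 14 proteasome genes with several it was 0.21. A typical proteasome ratio, with a median of 0.11 over all 45, was thus below these SDs between probe sets. It was also slightly below the pooled SD of 0.13 in the highest signal band, which held 32 of the 45 genes. The number of arrays limits the precision.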

How the data were processed

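Liver RNA was pooled per diet, labelled as biotinylated cRNA and hybridized to Affymetrix arrays, per the labels' protocols. The authors deposited linear intensity values, which the submitters' processing notes credit to MAS5 without a version. The mean deposited intensity, trimmed by 2% at each end, was 300.1 on both arrays, so nothing was rescaled. Detection calls were not used here. Of 22690 probe sets, 64 controls, 691 with several symbols and 1555 with none were left out. Gene names came from the platform annotation, and the 45 measured genes all matched RefSeq (GRCm38.p6) by gene identifier.

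Signals were raised to each array's 25th percentile (10.1 on the oleanolic acid array and 10.7 on the control array) and converted to log2, and gene values were computed as stated in the text. Pooled probe set SDs in 4 bands of rising signal were 0.27, 0.25, 0.17 and 0.13. Named genes are the immunoproteasome genes, their constitutive relatives, members past 0.25, the extremes of each role and up to 3 genes per related list, and other members or markers named beside them were chosen after their values were seen. Members and lists were chosen with earlier results of these data known. With 1 array per diet, no test was run, and depth does not apply to arrays. The calculation was tested on simulated data. Alternatives covered the floor, the filter, the scaling and the choice of probe sets. Python 3.11.15 and pandas 2.3.3 were used.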

Additional observations from a re-analysis of the deposited data

How the results depend on the processing

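The median of all members stayed between 0.097 and 0.12 and the immunoproteasome minus constitutive difference between -0.27 and -0.22 over 10 alternatives. The constitutive median stayed between 0.10 and 0.13 and the immunoproteasome median between -0.15 and -0.11. When every probe set counted as measured, 3 members were past 0.5 (Psmd4, Psma8 and Psmc3ip) and 10 past 0.25, against 0 and 4 in the main setting. The genes that only share the prefix then had a median of -0.26, against 0.10, because Psmc3ip entered. In that setting the median of all genes was -0.08, and 34 of 43 constitutive genes were above 0. A probe set at the floor on both arrays takes a log2 ratio of -0.083 from the floors alone. How many genes lay there was not counted, so the part of the floors in that median was not tested. In the main setting and all but 1 of the other 9 alternatives, 35 to 37 of 41 constitutive genes were above 0. In that 1, without probe sets whose names end in _x_at, _s_at or _a_at, 28 of 32 were. There 3 immunoproteasome genes were left, because the only probe set of Psmb8 is an _a_at one. Psma6 and Psmg2 changed sign with their brightest probe set alone, at 0.10 and 0.041, and Psmc6 changed in the opposite direction, to -0.0057. Psme3 changed sign, to 0.026, when every probe set counted as measured. Alternatives added after seeing the data gave an immunoproteasome median of -0.11 with the probe set shared by Psme2 and Psme2b, and a constitutive median of 0.11 without Psmd11. No paired analysis was possible because each diet has 1 array. The signals carry no detection calls, so whether dim probe sets lie above background is unknown.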

Other observations

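The 17 dim probe sets of proteasome genes, which entered no comparison, had signals between 1.2 and 50.3 on the oleanolic acid array and between 1.0 and 44.1 on the control array. Of these, 8 were higher and 9 lower on the oleanolic acid array. A dim probe set of Psmd7 read 50.3 on the oleanolic acid array and 26.1 on the control array, a log2 ratio of 0.95, against 0.24 for the measured probe set of that gene. A dim probe set of Psmd9 read 14.2 on the oleanolic acid array and 25.9 on the control array, a log2 ratio of -0.87, against 0.077 for the measured one. The 2 dim probe sets of Psmd11 read 28.1 and 22.5 on the oleanolic acid array and 17.6 and 20.3 on the control array, both higher on the oleanolic acid array.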
